A study of Homo sapiens with 4 samples.

Results

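Scramble control cells were compared between day 7 and day 3 after transduction, which follows time in culture without knockdown of APC. The comparison uses 2 of the 4 libraries of a single-cell RNA sequencing (scRNA-seq) series on HCEC 1CT cells and, after quality filtering, 3716 of its 5982 cells: 1116 of shScr day 3 and 2600 of shScr day 7. The members were chosen by label (scrambled shRNA, day 3 or day 7) and by 3 limits on each cell barcode, namely at least 200 genes, at least 500 UMIs (distinct molecules) and under 5% of UMIs from the 13 mitochondrially encoded genes. The other 2 libraries, shAPC day 3 and shAPC day 7, with 2266 kept cells, received an shRNA against APC and appear here only beside the control.

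HCEC 1CT is a human colonic epithelial progenitor line immortalised with TERT and CDK4, a telomerase subunit and a cyclin-dependent kinase that both arms carry. All groups went through viral transduction and puromycin selection and were grown in a low-serum medium with EGF, hydrocortisone, insulin, selenite and transferrin. The labels call the virus retroviral and the methods call it lentiviral. No untransduced culture and no library from before transduction was analysed here, so that the time since infection, the time under selection, passage and culture density cannot be told apart. Each group held 1 library of 1 line, which leaves every difference without a replicate check and without a p-value. Intervals are exact binomial (Clopper-Pearson) 95% intervals that cover counting error only.

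As background, cells that adapt to culture after infection and selection can change on several axes. Proliferation shows in the genes of S phase, which copy the DNA, and of G2M, which build the spindle and separate chromosomes. Stress and inflammatory signalling show in acute-phase proteins, NF-kB targets, immediate early genes and heat shock proteins. Matrix genes (collagens and the enzymes that hydroxylate and cross-link them) and metabolic genes follow serum, density and nutrient supply.

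Both control libraries were deposited at a similar total, 44537276 UMIs in 1471 barcodes at day 3 and 44019326 UMIs in 3652 barcodes at day 7. The mitochondrial limit removed 355 barcodes (24.1%) at day 3 and 1052 (28.8%) at day 7. Kept cells held 39797418 and 31230868 UMIs, with medians of 35109 UMIs at day 3 and 1330 UMIs at day 7. The day 7 library thus stood apart in depth, and the ratios of genes and lists were repeated in cells of at least 2000 genes, which were 765 cells at day 3 and 942 at day 7 and held 97.8% and 92.9% of the kept UMIs. Their medians were 51580 and 28780.5 UMIs. Mitochondrial transcripts took 3.47% of the kept UMIs at both days, and ribosomal protein transcripts 34.7% and 34.9%. The control libraries shared 7 barcodes with each other, while shScr and shAPC of the same day shared 23 at day 3 and 25 at day 7.

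The label of a colonic epithelial cell was set against marker genes. Of 19 epithelial markers only KRT7 and TJP1 reached 20 CPM (UMIs of a gene scaled to a fixed total per library) in a control library, and the list summed to 141 CPM at day 3 and 172 CPM at day 7. The 16 mesenchymal markers summed to 9809 CPM and 7916 CPM, with VIM (an intermediate filament of mesenchymal cells) at 5303 CPM and 4010 CPM. Measured markers therefore went against an epithelial identity at the transcript level, and the cells are called HCEC 1CT here. Of 11 blood markers 7 were at 0 in both control libraries and the list summed to 20.7 and 18.2 CPM. The 8 endothelial and pericyte markers summed to 12.6 and 9.19 CPM and the 10 markers of other gut and nerve cells, 9 of them at 0, to 0.603 and 0.320 CPM. APC was at 16.1 CPM at day 3 and 19.1 CPM at day 7, a log2 ratio of 0.19, CDK4 at 66.1 and 74.1 CPM, and TERT had 69 and 47 UMIs.

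Most of the transcriptome differed little between the days. Ratios were formed from UMIs summed over the kept cells of a library, scaled to CPM, as log2(CPM + 1) at day 7 minus day 3, and the median of all 4556 genes of at least 20 CPM in either library (0.05) was subtracted. Every ratio below is on this scale, where 0 is the median gene and 1 is 2-fold. Of the 4556 genes, 89.6% lay within 0.5 of the median gene, and the SD across genes was 0.33. There were 12 genes at least 2-fold higher at day 7 (0.263% of genes) and 44 at least 2-fold lower (0.966%). In cells of at least 2000 genes these were 13 (0.285%) and 46 (1.01%) of 4558 genes, with 12 of the 12 and 43 of the 44 past 2-fold in the same direction. Since these cells held 97.8% and 92.9% of the kept UMIs, this agreement is largely built in. Pearson's r between the ratios in all kept cells and in these cells was 0.99 across genes. The last genes inside the limit were SCG5 at 1.08 and WDR70 at -1.01, and the first outside it were CDKN3 at 0.97 and METAP2 at -0.99. In summed UMIs, fewer cells with a transcript and less of it per cell cannot be told apart, so shares of cells are given as well.

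**Figure D1:**
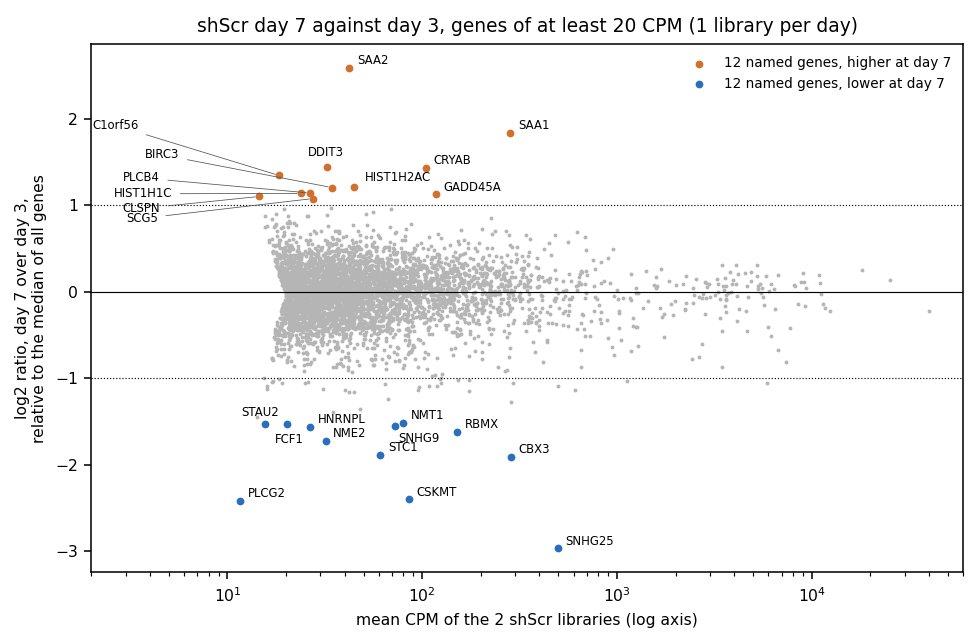
Each point is 1 of the 4556 genes of at least 20 CPM in shScr day 3 or day 7; the x axis is the mean CPM of the 2 libraries (log axis) and the y axis the log2 ratio of day 7 over day 3 relative to the median gene, with dotted lines at 2-fold. SAA2 (2.59) and SAA1 (1.83) stand highest and SNHG25 (-2.97) lowest, while most genes lie within 0.5 of the median gene.

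The serum amyloid genes were the highest at day 7. SAA2 (ENSG00000134339 in GENCODE, chromosome 11 at 18239223 to 18248668, GRCh38) had 437 UMIs at day 3 and 2298 at day 7, or 11.0 and 73.6 CPM, a log2 ratio of 2.59 (2.45 to 2.73). Its neighbour SAA1 (chromosome 11 at 18266260 to 18269977) had 121 and 447 CPM, a log2 ratio of 1.83 (1.78 to 1.88). Both encode acute-phase apolipoproteins that cytokines induce, and since they are close paralogues whose reads the counting could split, the division between them is uncertain. With every cell thinned to 2000 UMIs, SAA1 was seen in 101 of 899 cells at day 3 (11.2%, 9.24 to 13.5) and 432 of 1198 cells at day 7 (36.1%, 33.3 to 38.8). SAA2 was seen in 2.22% and 11.6% of the same cells. In cells with SAA1, its mean was 1.76 UMIs at day 3 and 2.47 at day 7, so both the share of cells and the UMIs per positive cell were higher. The ratios were smaller in cells of at least 2000 genes, at 2.36 for SAA2 and 1.61 for SAA1, and larger in cells under 2000 genes, at 3.45 and 3.00.

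The other measured acute-phase and complement genes did not share this size. C3, the central complement component, went from 16.1 to 24.7 CPM (0.54), PTX3, a secreted pattern recognition protein, from 337 to 355 CPM (0.02), and the complement protease C1S was at -0.22. The list of 5 measured genes had a median of 0.54, with 2 of the 5 at least 2-fold higher.

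Beside the serum amyloid genes, 10 genes were at least 2-fold higher at day 7. CRYAB, a small heat shock protein, had 54.5 CPM at day 3 and 154 CPM at day 7 (1.43, 1.36 to 1.51), and its share of thinned cells went from 10.0% to 23.4%. DDIT3, the stress transcription factor CHOP, had 16.6 and 48.3 CPM (1.44, 1.31 to 1.56). GADD45A, a growth arrest and DNA damage gene, had 71.8 and 163 CPM (1.12, 1.06 to 1.19). The share of cells differed less between the days for DDIT3 and GADD45A than for CRYAB: DDIT3 was seen in 3.00% (1.99 to 4.34) and 4.59% (3.48 to 5.93) of thinned cells and GADD45A in 12.1% (10.1 to 14.4) and 16.2% (14.2 to 18.4). The cell with the most DDIT3 had 3 UMIs at day 3 and 8 at day 7 after thinning, and the same maximum was 2 and 11 for GADD45A and 3 and 12 for CRYAB. The intervals of the DDIT3 shares overlapped, and those of the GADD45A shares did too. GADD45A was under 2-fold with all deposited barcodes (0.93), a mitochondrial limit of 10% (0.94), thinning (0.90) and the mean over cells of CPM (0.57), and DDIT3 was at 0.36 with the latter.

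BIRC3, an inhibitor of apoptosis that NF-kB induces, had 19.9 and 48.9 CPM (1.20). The chromatin proteins HIST1H2AC (25.8 and 63.0 CPM, 1.21) and HIST1H1C (14.1 and 33.5 CPM, 1.14) are clustered histone genes, whose transcripts mostly lack a poly(A) tail, so poly(A) capture sees an unknown part of them. The share of thinned cells with HIST1H1C went from 3.67% to 6.01%, with overlapping intervals. CLSPN, an adaptor of the replication checkpoint, had 8.62 and 20.4 CPM (1.10, 0.92 to 1.28). PLCB4, a phospholipase C, was at 1.14, and SCG5, a chaperone of a prohormone convertase, at 1.08. C1orf56, at 9.70 and 27.1 CPM, had a ratio of 1.34 in all kept cells, 1.06 in cells of at least 2000 genes, 2.49 in cells under 2000 genes and 2.81 in thinned cells. BIRC3 was at 1.22 in deep and 0.92 in shallow cells.

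**Figure D2:**
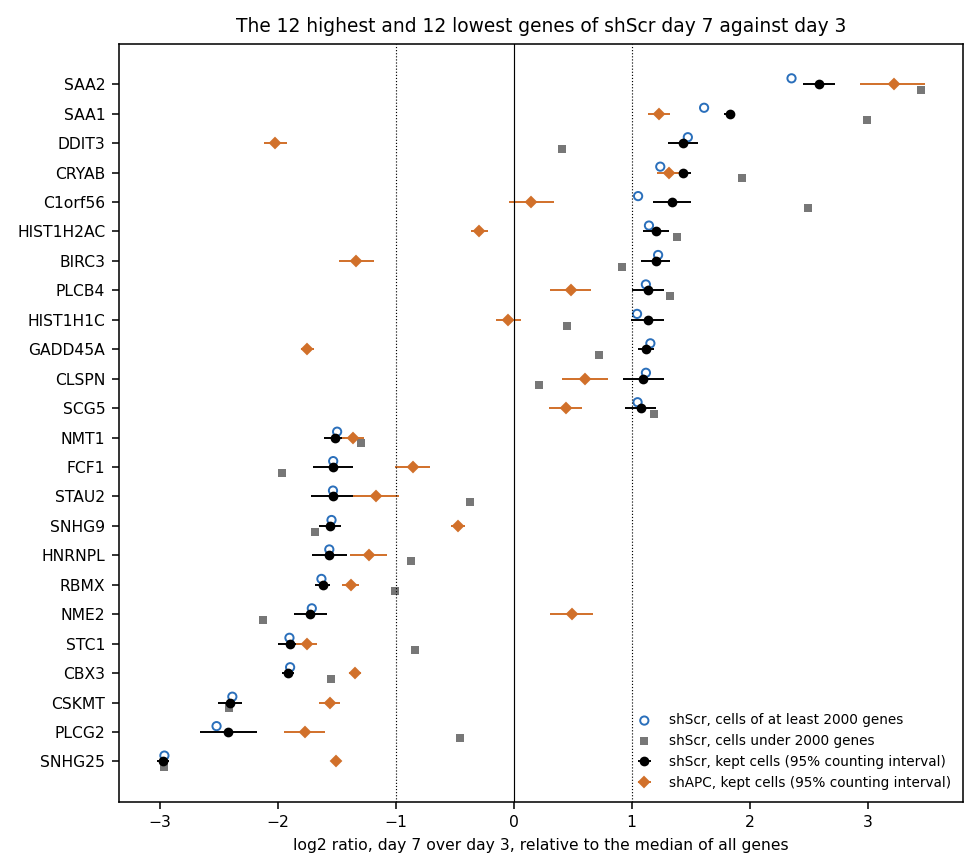
Log2 ratio of day 7 over day 3 (x axis, relative to the median gene) for the 12 highest and 12 lowest genes of shScr, in all kept cells (black, with 95% counting intervals), cells of at least 2000 genes (open circles), cells under 2000 genes (squares) and kept shAPC cells (diamonds). The open circles of all 24 genes are past 2-fold on the same side as the black points because the genes were chosen by that rule. SAA1 and SAA2 are higher in shallow cells, and DDIT3, GADD45A and BIRC3 lie on opposite sides of 0 in shScr and shAPC.

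Lower genes were more numerous and reached larger ratios. SNHG25, a snoRNA host gene (chromosome 17 at 64145937 to 64146476, a long noncoding RNA), had 34860 UMIs at day 3 and 3593 at day 7, or 876 and 115 CPM, a log2 ratio of -2.97 (-3.02 to -2.92). It was seen in 74.0% of thinned cells at day 3 and 20.3% at day 7. SNHG9, another snoRNA host, had 107 and 37.1 CPM (-1.56). The family as a whole did not move with them: of 8 measured SNHG genes, looked up after these values were seen, 3 lay above and 5 below 0, with a median of -0.42 and a range of -2.97 to 0.58.

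CBX3, the heterochromatin protein HP1 gamma (chromosome 7 at 26201162 to 26213607), had 448 and 123 CPM, a log2 ratio of -1.91 (-1.96 to -1.86), and was seen in 52.1% and 24.6% of thinned cells. The 4 measured CBX genes had a median of 0.04, with CBX3 the lowest. RBMX and HNRNPL, nuclear RNA-binding proteins that act in splicing, had ratios of -1.62 (227 and 75.8 CPM) and -1.56 (39.8 and 13.3 CPM). Their wider family, 19 measured HNRNP genes, had a median of 0.03, with 10 above and 9 below 0. STAU2, a dsRNA-binding protein of mRNA transport, had 23.4 and 7.75 CPM (-1.53). FCF1, a factor of ribosomal RNA processing, had 30.2 and 10.2 CPM (-1.53).

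CSKMT, a methyltransferase of citrate synthase, had 143 and 27.2 CPM (-2.40, -2.50 to -2.30). PLCG2, a phospholipase C of signalling cells, had 802 and 97 UMIs, or 20.2 and 3.11 CPM (-2.42, -2.66 to -2.17), and -0.45 in cells under 2000 genes, where it was at 7.91 and 6.33 CPM. The PLCG2 ratio in cells under 2000 genes rests on 7 UMIs at day 3 and 14 at day 7 (-1.69 to 0.86). STC1, a secreted glycoprotein hormone, had 95.5 and 26.0 CPM (-1.89). Both N-myristoyltransferases, which attach a fatty acid to protein N termini, were at least 2-fold lower, NMT1 at 118 and 41.9 CPM (-1.52) and NMT2 at -1.36. NME2, a nucleoside diphosphate kinase, was at -1.72 (49.0 and 14.7 CPM), but it overlaps a read-through transcript with the near-identical NME1 and its value is uncertain.

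Transcript features of the genes past 2-fold were described without a test. The longest annotated transcript had a median of 1510 nucleotides for the 12 higher genes and 3492.5 for the 42 lower genes with a length, against 3516 for all measured genes. Long noncoding RNAs made up 4 of the 44 lower genes (9.09%) and 0 of the 12 higher genes, against 1.60% of all measured genes.

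**Figure D3:**
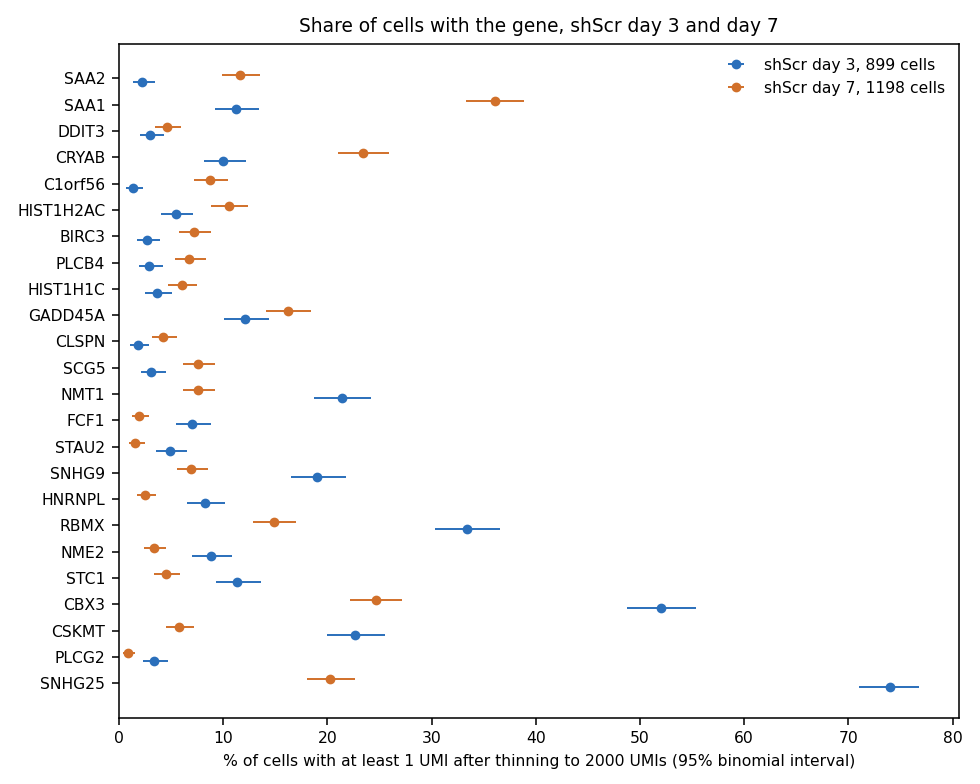
Share of shScr cells with at least 1 UMI of each named gene after thinning every cell to 2000 UMIs (x axis, %, with 95% binomial intervals), in 899 cells of day 3 and 1198 cells of day 7. SNHG25 goes from 74.0% to 20.3% and SAA1 from 11.2% to 36.1%, while the intervals of DDIT3, GADD45A and HIST1H1C overlap.

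Thinning left out 217 cells of day 3 and 1402 cells of day 7 with fewer than 2000 UMIs. Unthinned, SAA1 was seen in 44.2% of kept cells at day 3 and 77.6% at day 7, and SNHG25 in 87.6% and 39.2%. For DDIT3 and GADD45A the unthinned shares turned, to 28.9% and 13.3% and to 61.2% and 36.5%, beside median depths of 35109 and 1330 UMIs. They also turned for C1orf56, HIST1H2AC (41.3% and 25.6%), BIRC3, PLCB4, HIST1H1C, CLSPN and SCG5. Among the higher genes only SAA2, SAA1 and CRYAB kept the larger unthinned share at day 7. No cell type in the culture is known to lack these genes, so the share that free RNA gives could not be measured.

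G2M genes were higher at day 7 as a group, each by less than 2-fold. Of 24 measured members of a list of 54, 21 lay above 0 and 3 below, with a median of 0.52, against 2278 of 4556 and a median of 0 for all genes. The list summed to 1455 CPM at day 3 and 1776 CPM at day 7. MKI67, the proliferation antigen, had 23.3 and 35.3 CPM (0.53). CDK1, the mitotic kinase, had 14.4 and 23.9 CPM (0.64), UBE2C, a ubiquitin-conjugating enzyme of the anaphase-promoting complex, 34.6 and 59.2 CPM (0.71), and CKS2, a CDK subunit, 111 and 168 CPM (0.54). HMGB2, a chromatin protein, had the highest ratio of the list at 0.77 (37.2 and 66.6 CPM).

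TOP2A, the DNA topoisomerase of mitotic chromosomes, went against the rest of the list. It had 129 CPM at day 3 and 60.5 CPM at day 7, a log2 ratio of -1.13 (-1.11 in cells of at least 2000 genes), and was the member past 2-fold. RANGAP1 (-0.50) and TUBB4B (-0.11) were the other two below 0. In cells under 2000 genes the median of the list turned to -0.26. Thinning to 2000 UMIs gave a median of 0.32, the mean over cells of CPM 0.01, the mitochondrial limit of 10% 0.27 and all deposited barcodes 0.26, against 0.54 in cells of at least 2000 genes. The cause of these shifts was not tested.

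Promoters of 4 of these genes are shown because many G2M genes share CCAAT boxes and a TTTGAA element, which cell cycle factors read. The windows run from 250 bases before to 50 bases after the annotated start (RefSeq, GRCh38.p14), and capitals mark CCAAT or TTTGAA on either strand (ATTGG and TTCAAA on the other). They are CKS2 at chr9:89310945-89311244 (plus strand), CDC20 at chr1:43358731-43359030 (plus strand), MKI67 at chr10:128126374-128126673 (minus strand) and TOP2A at chr17:40417847-40418146 (minus strand).
CKS2: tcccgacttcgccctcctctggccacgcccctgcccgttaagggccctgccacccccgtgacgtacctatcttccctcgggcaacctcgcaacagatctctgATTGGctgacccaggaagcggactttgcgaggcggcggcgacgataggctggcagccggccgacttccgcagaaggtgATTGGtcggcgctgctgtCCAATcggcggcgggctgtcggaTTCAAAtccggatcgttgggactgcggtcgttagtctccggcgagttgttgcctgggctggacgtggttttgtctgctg
CDC20: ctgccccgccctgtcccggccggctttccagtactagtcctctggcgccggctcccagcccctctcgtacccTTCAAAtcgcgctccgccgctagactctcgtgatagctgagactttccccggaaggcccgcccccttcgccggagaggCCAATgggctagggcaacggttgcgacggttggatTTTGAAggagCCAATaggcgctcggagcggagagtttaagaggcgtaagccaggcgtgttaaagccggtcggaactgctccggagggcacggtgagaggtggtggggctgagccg
MKI67: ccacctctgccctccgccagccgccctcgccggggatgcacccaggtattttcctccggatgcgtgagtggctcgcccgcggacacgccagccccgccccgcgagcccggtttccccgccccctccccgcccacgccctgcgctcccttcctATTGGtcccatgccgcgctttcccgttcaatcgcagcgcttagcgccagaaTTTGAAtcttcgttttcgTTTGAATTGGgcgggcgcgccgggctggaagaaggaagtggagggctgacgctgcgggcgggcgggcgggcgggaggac
TOP2A: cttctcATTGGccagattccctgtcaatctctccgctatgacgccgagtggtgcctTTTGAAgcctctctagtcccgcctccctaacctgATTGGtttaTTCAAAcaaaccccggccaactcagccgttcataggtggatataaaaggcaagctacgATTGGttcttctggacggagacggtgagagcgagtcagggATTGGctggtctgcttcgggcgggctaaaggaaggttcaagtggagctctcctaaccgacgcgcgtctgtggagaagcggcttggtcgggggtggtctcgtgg
CKS2 held 3 CCAAT and 1 TTTGAA, CDC20 2 and 2, MKI67 2 and 2, where a TTTGAA overlaps an ATTGG, and TOP2A 4 and 2. TOP2A, the member at least 2-fold lower at day 7, thus carried the same letters as the other genes shown. Of 18 measured G2M genes with a window, 14 (77.8%) held CCAAT, 14 held TTTGAA and 12 (66.7%) held both, against 35.7%, 15.4% and 6.08% of 27305 promoters. A match is a description of letters and not of binding.

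S phase genes and histones were also on the higher side. Of 9 measured S phase genes 8 lay above 0, with a median of 0.26 and a sum of 521 CPM at day 3 and 671 CPM at day 7. The member at that median was MRPL36, a mitochondrial ribosomal protein gene on the list, with 85.0 and 106 CPM (0.26). USP1, a deubiquitinase of DNA repair, had 12.7 and 26.5 CPM (0.96) and RRM2, the regulatory subunit of ribonucleotide reductase, 40.6 and 56.5 CPM (0.42). PCNA, the DNA polymerase clamp, was at 0.06 and TYMS, the thymidylate synthase, at 0.03. HIST1H4C, the third clustered histone that was measured, had 158 and 296 CPM (0.85).

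Phase scores from the same 2 lists gave the same direction. After thinning to 2000 UMIs, 241 of 899 cells (26.8%, 23.9 to 29.8) scored as S or G2M at day 3 and 415 of 1198 (34.6%, 31.9 to 37.4) at day 7, 7.83 percentage points more. S phase went from 5.12% (3.77 to 6.77) to 9.10% (7.53 to 10.9) and G2M from 21.7% to 25.5%, with overlapping G2M intervals (upper bound 24.5 at day 3 and lower bound 23.1 at day 7). The S phase shares depended on depth, at 17.4% and 19.9% with 1000 UMIs and 1.36% and 5.02% with 5000 UMIs. The combined difference was 6.29 points without thinning, 5.51 at 1000 UMIs and 7.08 at 5000 UMIs. In shAPC the same share went from 29.4% to 25.8%, a change of -3.66 points. The scores are set by the genes above and by free RNA, which was not measured, and no rate of division is read from them.

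CDK inhibitors and p53 targets held GADD45A but did not move as a group, with 12 of 17 above 0 and a median of 0.13. CDKN1A, the inhibitor p21, had 516 and 539 CPM (0.01), CDKN2A, which encodes p16 and ARF, 385 and 416 CPM (0.06), and MDM2, the ubiquitin ligase of p53, 61.5 and 59.2 CPM (-0.11). GADD45B (45.6 and 92.9 CPM, 0.96) and PMAIP1, a BH3-only death gene (31.7 and 56.8 CPM, 0.77), were next to GADD45A.

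Inflammatory and early response genes were moderately higher. Of 16 measured NF-kB targets and chemokines 13 lay above 0, with a median of 0.27 and 1 (BIRC3) past 2-fold. CXCL8, a neutrophil chemokine, had 173 and 285 CPM (0.67), CXCL1 246 and 364 CPM (0.51), CCL20, a chemokine for CCR6 cells, 13.7 and 27.1 CPM (0.88) and NFKBIA, the inhibitor that NF-kB induces, 58.1 and 85.1 CPM (0.49). TNFAIP2 (-0.34), CXCL5 (-0.19) and NFKB1 (-0.17) were below 0. Of 14 immediate early genes 12 lay above 0, with a median of 0.33. KLF10 had 23.7 and 42.2 CPM (0.76), CTGF 149 and 257 CPM (0.73), CYR61 202 and 340 CPM (0.70) and EGR1 35.7 and 55.6 CPM (0.57), whereas JUN (0.08) and MYC (-0.01) were near the median gene.

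Cytosolic heat shock proteins were higher in 13 of 16 cases, with a median of 0.32. HSP90AA1, the inducible HSP90, had 353 and 543 CPM (0.57) and HSPB1, a small heat shock protein, 761 and 1032 CPM (0.39), while the constitutive HSP90AB1 had 439 and 361 CPM (-0.33). The ER chaperones had a median of 0.03, with 9 of 17 above 0.

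DDIT3 was not accompanied by the rest of its pathway. Of 17 measured genes of the ATF4 and CHOP response 4 lay above 0 and 13 below, with a median of -0.23. ATF4, the factor upstream of DDIT3, had 183 and 135 CPM (-0.49), the amino acid transporter SLC7A5 60.7 and 34.6 CPM (-0.85) and PSAT1, an enzyme of serine synthesis, 44.6 and 29.3 CPM (-0.64). In cells under 2000 genes the median of this list turned to 0.12.

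Aminoacyl-tRNA synthetases, which charge tRNAs and many of which ATF4 induces, were lower in 18 of 19 cases, with a median of -0.40 and a sum of 1288 CPM at day 3 and 954 CPM at day 7. TARS had 130 and 62.2 CPM (-1.10) and was the member past 2-fold. SARS had 136 and 75.2 CPM (-0.90) and AARS 27.0 and 15.6 CPM (-0.80). LARS, at 45.6 and 47.7 CPM (0.01), was the exception.

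Extracellular matrix genes were lower at day 7. Of 13 measured collagens 12 lay below 0, with a median of -0.38 and none past 2-fold, and the list summed to 3621 and 2657 CPM. COL1A1 and COL1A2, the chains of fibrillar type I collagen, had 1444 and 927 CPM (-0.69) and 627 and 492 CPM (-0.40). COL6A3, of microfibrillar type VI collagen, had 342 and 188 CPM (-0.91), and COL8A1, a short-chain collagen, was the member above 0 with 200 and 247 CPM (0.26). All 14 measured collagen processing enzymes lay below 0, with a median of -0.36. Their range ran from LOX, the lysyl oxidase that cross-links collagen, at -0.08 to its relative LOXL2 at -0.85 (103 and 58.5 CPM).

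Matrix receptors and proteases lay on the same side. Of 7 measured integrins 6 were below 0, with a median of -0.43. ITGB1, the common beta subunit, had 706 and 543 CPM (-0.43) and ITGA5, the fibronectin receptor subunit, 348 and 214 CPM (-0.75). Among metalloproteinases and protease inhibitors 12 of 14 were below 0 (median -0.21), with MMP14, a membrane-bound metalloproteinase, at 72.2 and 41.0 CPM (-0.85). Matricellular genes were mixed, with 6 of 17 above 0, among them THBS1, or thrombospondin 1, at 34.7 and 68.0 CPM (0.90). When CPM was averaged over cells, the medians turned to 0.08 for collagen processing enzymes and 0.21 for the protease list. In cells under 2000 genes they turned to 0.15 for collagens, 0.12 for collagen processing enzymes, 0.56 for integrins and 0.53 for the protease list.

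Glycolytic and hypoxia genes were lower in 17 of 18 cases, with a median of -0.35 and a sum of 8867 and 7023 CPM. GAPDH had 3971 and 2990 CPM (-0.46), ENO1, the enolase, 788 and 513 CPM (-0.67) and GPI, the phosphoglucose isomerase, 153 and 80.8 CPM (-0.96), while ADM, or adrenomedullin, had 108 and 139 CPM (0.30). The NRF2 targets, an antioxidant gene list, had a median of -0.11, with 7 of 16 above 0. All 5 measured metallothioneins, which bind zinc and copper, were below 0 (median -0.41). MT2A had 42335 and 37465 CPM (-0.23) and MT1G 42.2 and 19.5 CPM (-1.13), and as near-identical paralogues their reads could be split by the counting. Fatty acid synthesis genes were lower in 8 of 9 cases, with a median of -0.24.

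**Figure D4:**
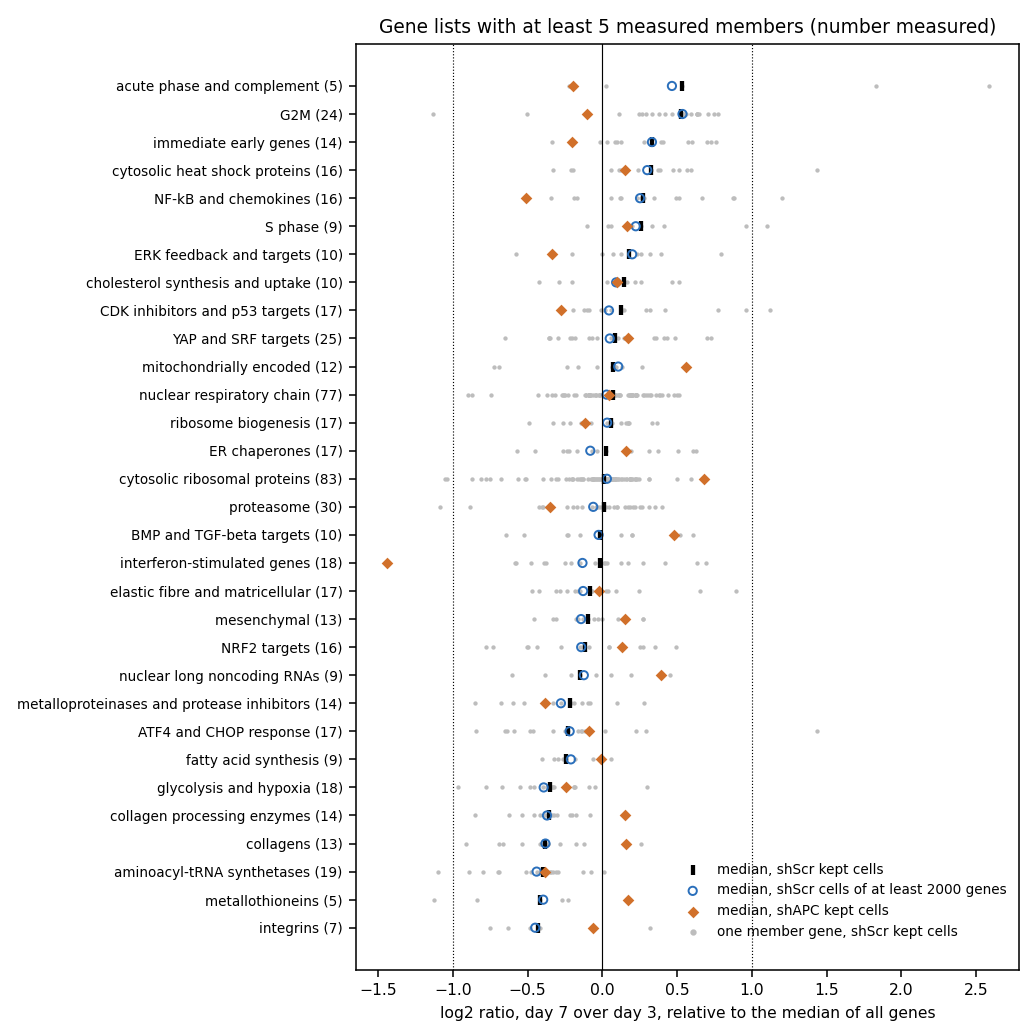
Log2 ratio of day 7 over day 3 (x axis, relative to the median gene) of gene lists with at least 5 measured members; grey points are genes in shScr kept cells, bars their median, open circles the median in cells of at least 2000 genes and diamonds the median in shAPC. G2M (0.52) lies among the highest shScr medians and integrins (-0.43) lowest, and the interferon-stimulated genes are near 0 in shScr and at -1.44 in shAPC.

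Large housekeeping groups were near the median gene. Of 83 measured ribosomal protein genes 43 lay above and 40 below 0 (median 0.01), of 77 nuclear genes of the respiratory chain 43 above and 34 below (0.07), and of 30 proteasome genes 15 on each side (0.01). The 12 measured mitochondrially encoded genes had a median of 0.07 under the limit of 5% mitochondrial UMIs, 0.27 with a limit of 10% and 0.31 with all deposited barcodes. Among them MT-ND3 (1193 and 746 CPM, -0.73) and MT-ND4L (107 and 68.0 CPM, -0.69) were lower. Interferon-stimulated genes were split, with 9 of 18 on each side and a median of -0.02. In this list IFI27 had 177 and 297 CPM (0.70), B2M, the light chain of MHC class I, 525 and 846 CPM (0.63) and IFITM2 441 and 304 CPM (-0.59).

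The same contrast in the shAPC arm, which shares no library with the control, was set beside these values. The 5176 genes measured there had an SD of 0.46 around their own median, with 31 at least 2-fold higher (0.599%) and 126 at least 2-fold lower (2.43%). That median, subtracted from every shAPC ratio, was -0.34, against 0.05 in shScr. A gene with the same CPM at both days thus lies above 0 in shAPC. Across the 4432 genes measured in both arms Pearson's r of the ratios was 0.35 and Spearman's rho 0.34, as a description, since genes are not independent replicates and the arms share their harvest days. Of the 44 genes lower in the control 36 lay below 0 in shAPC and 15 were at least 2-fold lower there. Of the 4556 genes measured in shScr, 46.5% lay below 0 in shAPC and 68 were at least 2-fold lower. SNHG25 (-1.50), CBX3 (-1.34), STC1 (-1.75), RBMX (-1.38) and NMT1 (-1.36) were lower in both arms, and NME2 was at 0.49.

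Above 0 in shAPC lay 2439 of the 4556 genes measured in shScr, with 28 at least 2-fold higher and 68 at least 2-fold lower. Of the 12 genes higher in the control 7 lay above 0 in shAPC and 3 were at least 2-fold higher. Those 3 were SAA2 at 3.22 (1.29 to 15.9 CPM), SAA1 at 1.23 (44.7 to 84.1 CPM) and CRYAB at 1.32 (32.0 to 64.2 CPM). SAA1 and CRYAB passed 2-fold there only with the shAPC median of -0.34 subtracted, and SAA2 passed without it. Another 3 were at least 2-fold lower there: DDIT3 at -2.02 (178 to 34.0 CPM), GADD45A at -1.75 (462 to 108 CPM) and BIRC3 at -1.33 (47.8 to 14.4 CPM). SAA2, C1orf56, PLCB4 and CLSPN were under 20 CPM in both shAPC libraries, below the limit for a measured gene. At day 3 DDIT3 was at 16.6 CPM in shScr and 178 CPM in shAPC, and at day 7 at 48.3 and 34.0 CPM. Whether the arms differ beyond the spread between libraries was not tested, since each group is 1 library. The Cell Ranger version in the file headers also differs between the arms.

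List medians, each relative to the median gene of its arm, differed in side for several groups. G2M was at 0.52 in shScr and -0.10 in shAPC, NF-kB and chemokines at 0.27 and -0.51, immediate early genes at 0.33 and -0.20, collagens at -0.38 and 0.16, and collagen processing enzymes at -0.36 and 0.15. In summed CPM, shAPC collagens went from 4153 at day 3 to 4186 at day 7, and shAPC collagen processing enzymes from 1674 to 1430. Neither sum shows a marked rise, and the positive medians are relative to a median gene that was itself lower. Aminoacyl-tRNA synthetases (-0.40 and -0.38) and glycolysis and hypoxia (-0.35 and -0.24) were below the median gene in both arms. Ribosomal protein genes were at 0.01 in shScr and 0.68 in shAPC. These values are side by side and the difference between arms was not tested.

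**Figure D5:**
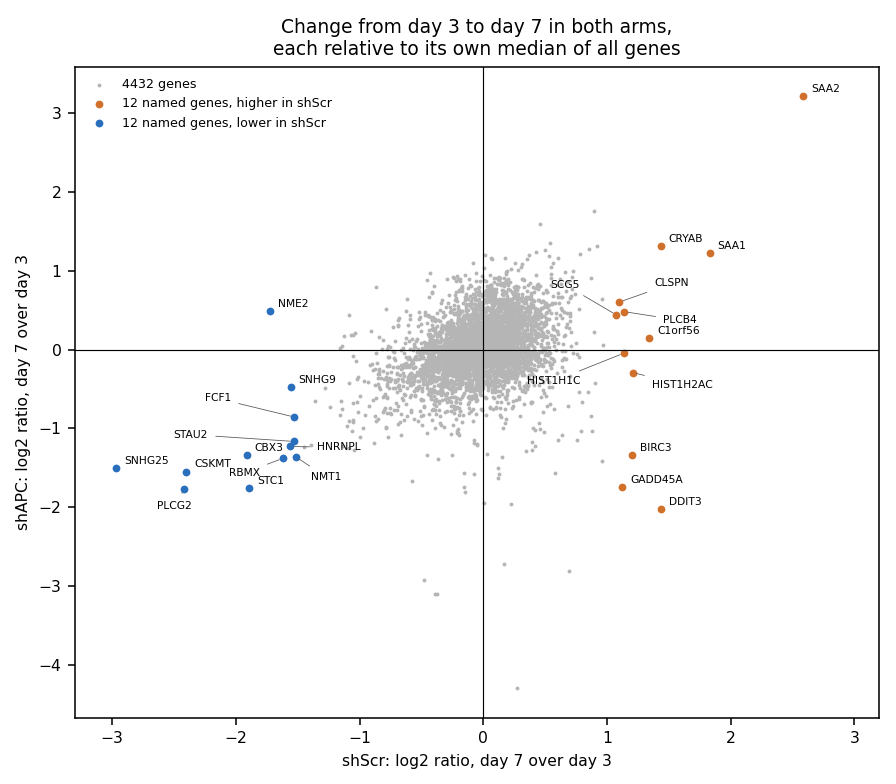
Log2 ratio of day 7 over day 3 in shScr (x axis) and shAPC (y axis), each relative to the median gene of its arm, for the 4432 genes of at least 20 CPM in both arms. The named genes are drawn as well, of which SAA2, C1orf56, PLCB4, CLSPN and NME2 were under 20 CPM in both shAPC libraries. SAA1, SAA2 and CRYAB lie upper right, SNHG25, CBX3 and STC1 lower left, and DDIT3, GADD45A and BIRC3 lower right.

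Cells under 2000 genes were described apart, because they made up 1658 of 2600 kept cells at day 7 and 351 of 1116 at day 3. They held 2211972 and 884432 UMIs, with medians of 665.5 and 1423 UMIs. All 12 higher genes lay above 0 in them, 7 of them past 2-fold, and 41 of the 44 lower genes lay below 0, 23 past 2-fold. Of the 4493 genes of at least 20 CPM in these cells, 198 were at least 2-fold higher and 142 at least 2-fold lower. The 12 and 44 genes were chosen from sums that include these cells, so part of the shared direction is built in. SAA1 had 146 CPM at day 3 and 1318 CPM at day 7 in these cells, against 120 and 381 CPM in the deep cells. CRYAB had 104 and 450 CPM here, against 53.4 and 132 CPM in the deep cells. For DDIT3 the values were 28.3 and 42.9 CPM, against 16.3 and 48.8 CPM. Several groups were further from the median gene than in all kept cells, with medians of 1.83 for acute-phase genes, 0.94 for immediate early genes, 0.79 for NF-kB and chemokines and 0.54 for interferon-stimulated genes. THBS1 was at 2.63 (1.63 to 3.75), from 7 UMIs at day 3 and 135 at day 7, and FAP, a fibroblast surface protease, at 2.23. The part that their depth has in these values was not tested.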

How the data were processed

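scRNA-seq libraries of HCEC 1CT cells were prepared with the 10x Genomics Chromium 3' kit (v2 per the labels, V3 per the methods). The authors aligned reads to hg38 and deposited raw UMI count matrices of called cells, which the file headers attribute to Cell Ranger 3.0.2 (shScr) and 3.0.0 (shAPC). The processing notes give 3.0.2 for all libraries and the methods give 3.0.0, so the version used is uncertain. The annotation release was not given in the sources used here. Members, gene lists and tests were chosen with earlier results of these data known. Groups came from the sample titles. Barcodes of at least 200 genes, 500 UMIs and under 5% mitochondrial UMIs were kept. The study's ComBat correction and imputation were not applied, and their effect was not tested. No doublets were removed, and their share is unknown. UMIs were summed per library, scaled to CPM and compared as log2(CPM + 1), centred on the median of genes of at least 20 CPM. Bounds of a ratio are the exact binomial bounds on the split of a gene's UMIs, carried to this scale. Named genes were the 12 highest and 12 lowest that were also 2-fold in deep cells, then the 3 most abundant members and the member with the largest ratio of each list, and further members given with their list were chosen after their values were seen. Python 3.11.15, numpy 2.4.6, scipy 1.17.1, scanpy 1.11.5 (phase scores), edgeR 4.0.16 and DESeq2 1.42.0 (scale factors only) were used. Code was tested on simulated data. Gene positions and transcript lengths came from GENCODE 44 and promoters from RefSeq. Alternatives covered scaling, CPM minimum, pseudocount, thinning, mitochondrial limit, barcodes and mean over cells.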

Additional observations from a re-analysis of the deposited data

Results flagged for a closer look

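In 3 genes the shScr and shAPC libraries moved at least 2-fold in opposite directions from day 3 to day 7. GADD45A was at 1.12 in shScr and -1.75 in shAPC, BIRC3 at 1.20 and -1.33, and DDIT3 at 1.44 and -2.02 (log2 ratios relative to the median gene of each arm). In shScr the 2-fold size of GADD45A was lost in 5 settings (0.57 to 0.94), and when CPM was averaged over cells BIRC3 was at 0.95 and DDIT3 at 0.36. With 1 library per group the difference between the arms was not tested.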

How the results depend on the processing

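No paired analysis was possible because each group holds 1 library, and for the same reason no replicate could be left out. The count of 12 genes higher at day 7 was 3 with a minimum of 100 CPM, 24 with 5 CPM, 41 with cells thinned to 2000 UMIs, 78 with the mean over cells of CPM and 198 in barcodes under 2000 genes, an alternative chosen after seeing the data. The count of 44 lower genes was 22 with a minimum of 100 CPM, 88 with the mean over cells and 142 in barcodes under 2000 genes. In cells of at least 2000 genes, 13 higher genes became 7 with a pseudocount of 5 CPM, 3 at 100 CPM and 26 at 5 CPM, and 46 lower genes became 22 at 100 CPM. In shAPC, 31 higher genes became 90 after thinning. The share of higher among all 2-fold genes was 21.4%, against 41.8% after thinning, 47.0% with the mean over cells and 58.2% in barcodes under 2000 genes. TMM, DESeq2 size factors, totals without mitochondrial and ribosomal protein genes, all deposited barcodes and a mitochondrial limit of 10% left the counts of shScr within 1.5-fold. Of the 29 named genes past 2-fold, MT1G turned (to 0.074 in barcodes under 2000 genes, from 12 UMIs at day 3 and 36 at day 7). With the mean over cells 22 of these 29 stayed past 2-fold, and in barcodes under 2000 genes 16. Of 36 list medians, 18 stayed within 0.2 with the mean over cells (acute phase went from 0.54 to 1.34 and ER chaperones from 0.03 to 0.45) and 10 in barcodes under 2000 genes. The epithelial list (0.36 to -0.065) and the collagen processing and protease lists were the 3 past 0.2 that turned with the mean over cells, and 7 turned in barcodes under 2000 genes. The cause was not tested.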

Other observations

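Among groups not described above, the BMP and TGF-beta targets split, with 5 of 10 measured genes on each side of the median gene. The inhibitors of differentiation ID3 (277 CPM at day 3 and 438 CPM at day 7, log2 ratio 0.61) and ID2 (0.52) were higher, and INHBA, a subunit of activin, was lower (90.0 and 59.3 CPM, -0.64). DKK1, a secreted Wnt antagonist, had 117 and 200 CPM (0.71) in shScr and a ratio of 0.77 in shAPC. The nuclear RNA NEAT1, a scaffold of paraspeckles, had 3251 and 2213 CPM in shScr (-0.61). In shAPC it had 3131 and 3072 CPM, which is 0.31 relative to the median gene of that arm and no rise in CPM. Of 43 measured genes of translation initiation factors, a family looked up after values were seen, 17 lay above and 26 below 0 (median -0.07), with 1 at least 2-fold lower. Among YAP and SRF targets 14 of 25 lay above 0 (median 0.09), with FLNA, an actin cross-linker, at 341 and 225 CPM (-0.65) and TPM1, a tropomyosin, at 274 and 378 CPM (0.41).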
